A study of Mus musculus with 18 samples.

Results

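Major histocompatibility complex (MHC) class I presentation was followed through 10 genes in primary mouse fibroblasts: the heavy chain genes H2-K1, H2-D1 and H2-Q4, the light chain gene B2m, the peptide transport and loading genes Tap1, Tap2 and Tapbp, and the immunoproteasome genes Psmb8, Psmb9 and Psmb10. They are 10 of 24445 gene symbols in the deposited table, and all 10 were among the 12599 genes that reached 1 FPKM (fragments per kilobase of transcript, scaled to library size) in at least 2 libraries. The 10 genes were chosen by name from the pathway, with their FPKM levels in these same 18 libraries already known. Their levels, counts and adjusted p-values are therefore a description and support nothing on their own.

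The cells were primary tail-tip fibroblasts of mice aged 2 months, at passage 5, in a study of CRISPR/Cas9 editing of Lmna, the lamin A/C gene, in mice that carry a progeria allele written Pro. The genotypes were Pro/Pro;Cas9/+ (2 Pro alleles and a Cas9 transgene, here homozygous Cas9 cells), +/+;Cas9/+ (no Pro allele and the Cas9 transgene, here wild-type Cas9 cells) and Pro/+; +/+ (1 Pro allele and no Cas9, the submitters' control for the nuclease, here heterozygous cells). Cells of 2 mice per genotype each received 3 lentiviral guide RNAs: gMock, which matches no site in the genome, gLmna-1 or gLmna-2, both aimed at Lmna. That gave 9 groups of 2 and 18 libraries. All cells, controls included, were therefore infected with a lentivirus that carries mCherry. More than 80% of cells were mCherry-positive by microscopy, no sorting or selection followed, and RNA was taken without DNase digestion. The promoter that drives Cas9 is not given in the sources used here. One of the heterozygous cultures carries a double mouse number, and whether it was 1 animal or a pool is not stated. Mouse 1 and mouse 2 below are the mice of a genotype in accession order, and mouse 1 of a genotype has no link to mouse 1 of another.

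Libraries held 22424388 to 42622087 reads, recovered from the steps of the deposited FPKM values. Lmna, the targeted gene, lay at 217 to 370 FPKM in homozygous Cas9 cells, 272 to 381 in wild-type Cas9 cells and 196 to 291 in heterozygous cells, and a transcript level cannot show whether the gene was cut. A list of 10 fibroblast markers summed to 8648 to 12097 FPKM. Markers of T and NK cells summed to at most 0.578 FPKM, of dendritic cells to at most 1.87, of endothelial cells to at most 2.26 and of keratinocytes to at most 1.42. All 14 macrophage markers were above 0 in every library, with sums of 80.2 to 1779 FPKM. These are bulk cultures, so more cells of a type and more RNA per cell cannot be told apart.

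MHC class I molecules show peptides from inside the cell to CD8 T cells and natural killer cells. The proteasome cuts cytosolic proteins, the TAP transporter carries the peptides into the endoplasmic reticulum, and tapasin helps to load them onto a heavy chain paired with beta-2 microglobulin. Interferons raise transcription of nearly every step through IRF and other factors, and NLRC5 acts as a transactivator at class I promoters, while most cells, fibroblasts among them, keep a low basal level. Of the 10 genes, 8 lie on chromosome 17 within 1465 kb. Psmb9, Tap1, Psmb8 and Tap2 are neighbours within 34.2 kb, and Psmb9 and Tap1 point away from each other with 226 bases between their RefSeq starts. B2m is on chromosome 2 and Psmb10 on chromosome 8.

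The bases just before the RefSeq start are shown for H2-K1, H2-D1, H2-Q4, B2m and Tap1. Class I promoters are where the interferon and NLRC5 pathways are known to act, and these windows were picked for display. Each is 250 bases upstream of the RefSeq start in GRCm38.p6 (mm10), 5′ to 3′ in the direction of transcription. Promoters of 9 of the 10 genes matched the RefSeq table, and Tap2 did not. Capitals mark matches on either strand to GAANNGAAA or GAAANNGAAA (interferon response type), GGGANNNNCC (kappa B type), TGACG (the core of a cyclic AMP response element, as in the X2 box of MHC promoters) and CCAAT (as in the Y box). Adjoining capitals can hold overlapping matches. Among the windows not shown, those of Psmb8 and Psmb10 held none of these marked motifs, and that of Tapbp held CCAAT alone. TTCNNNGAA (interferon gamma-activated site type) was also searched and is not marked. It was in 7.01% of all windows and in Psmb8 alone of the 9, starting 97 bases before the start.
H2-K1, chr17:34000334-34000583, minus strand: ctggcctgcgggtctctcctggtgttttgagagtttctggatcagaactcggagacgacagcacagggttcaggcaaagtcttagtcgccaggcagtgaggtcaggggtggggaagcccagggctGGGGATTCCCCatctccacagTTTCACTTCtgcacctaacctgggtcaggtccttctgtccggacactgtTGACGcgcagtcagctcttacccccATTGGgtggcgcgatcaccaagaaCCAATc
H2-D1, chr17:35262844-35263093, plus strand: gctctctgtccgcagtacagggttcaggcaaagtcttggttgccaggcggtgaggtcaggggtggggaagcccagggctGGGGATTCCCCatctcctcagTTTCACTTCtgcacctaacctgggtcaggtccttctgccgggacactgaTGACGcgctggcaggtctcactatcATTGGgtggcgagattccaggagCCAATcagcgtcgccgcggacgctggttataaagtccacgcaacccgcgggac
H2-Q4, chr17:35379367-35379616, plus strand: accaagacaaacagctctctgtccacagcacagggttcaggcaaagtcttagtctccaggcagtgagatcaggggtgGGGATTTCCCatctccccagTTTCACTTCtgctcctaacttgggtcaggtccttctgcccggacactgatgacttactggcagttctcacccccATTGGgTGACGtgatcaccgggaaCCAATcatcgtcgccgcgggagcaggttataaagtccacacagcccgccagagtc
B2m, chr2:122147437-122147686, plus strand: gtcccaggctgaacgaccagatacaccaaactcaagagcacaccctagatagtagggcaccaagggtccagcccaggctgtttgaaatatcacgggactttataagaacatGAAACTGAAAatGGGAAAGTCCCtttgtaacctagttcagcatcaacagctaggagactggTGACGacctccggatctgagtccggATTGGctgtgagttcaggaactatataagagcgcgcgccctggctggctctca
Tap1, chr17:34187306-34187555, plus strand: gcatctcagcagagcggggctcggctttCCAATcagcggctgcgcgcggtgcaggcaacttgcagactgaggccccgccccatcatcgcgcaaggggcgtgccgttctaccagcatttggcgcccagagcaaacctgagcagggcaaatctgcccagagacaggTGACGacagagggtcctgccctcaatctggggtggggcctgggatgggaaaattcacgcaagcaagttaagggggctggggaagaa

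The heavy chain promoters shared a block in which the kappa B type and interferon response type matches stood 10 bases apart in all 3 genes. The interferon match began 104 bases before the annotated RefSeq start in H2-K1, 150 in H2-D1 and 153 in H2-Q4. H2-K1 and H2-D1 were identical at 82.8% of 204 bases compared without gaps. That was at an offset of 46 bases, which brings their interferon matches into line. The first exon part after the H2-K1 start held 0 to 0.808 FPKM in wild-type Cas9 cells with gMock or gLmna-1. Where transcription began was not tested. B2m held the longer GAAANNGAAA form, starting 139 bases before its start, next to a kappa B type match. GAANNGAAA was present in 6.31% of all 32817 RefSeq promoter windows of this length and in H2-K1, H2-D1 and H2-Q4 of the 9 class I windows. GAAANNGAAA was in 2.97% of all windows and in B2m alone of the 9. GGGANNNNCC was in 17.6% of all windows and in H2-K1, H2-D1, H2-Q4 and B2m. TGACG was in 17.7% of all windows and in 6 of the 9, namely those genes with Tap1 and Psmb9. In H2-K1 and H2-D1 it began 55 and 101 bases before the start, upstream of the first CCAAT match at 30 and 76. In H2-Q4 it began at 73, between CCAAT matches at 79 and 55, so its place in the promoter differed. CCAAT was in 33.8% of all windows and in 7 of the 9. The Tap1 and Psmb9 windows share 225 bases on opposite strands, so they are nearly 1 piece of sequence. A match is a run of letters and not a measured binding site.

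The 3 heavy chain genes were highest in the wild-type Cas9 cells given gMock. H2-K1, a classical heavy chain gene (NM_001001892, chr17:33996012-34000333, minus strand), stood at 151 and 125 FPKM with gMock in mouse 1 and mouse 2, at 63.4 and 57.0 with gLmna-1 and at 102 and 85.9 with gLmna-2. In the 12 libraries of the other genotypes it ranged from 59.5 to 85.1, with a median of 73.4. Both gMock libraries of wild-type Cas9 cells lay above every other library, and the gLmna-1 libraries overlapped with the other genotypes. H2-D1, the second classical heavy chain gene (NM_010380, chr17:35263094-35267497, plus strand), stood at 216 and 189 FPKM with gMock, then 106 and 91.2 for gLmna-1, then 159 and 125 for gLmna-2 in the same cells. Its range elsewhere was 84.3 to 168, with a median of 108. The highest of those was the gMock library of homozygous mouse 2, which came near to the gMock libraries of wild-type Cas9 cells without reaching them.

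H2-Q4, a non-classical class I gene of the Q region (NM_001143689, chr17:35379617-35384674, plus strand), had the widest range of the 10 genes. It stood at 14.1 and 10.9 FPKM with gMock in wild-type Cas9 cells, then 1.70 and 1.68 for gLmna-1, then 5.51 and 4.07 for gLmna-2. In homozygous Cas9 cells it was 1.25 and 5.31 with gMock, then 1.73 and 2.57 for gLmna-1, then 1.86 and 3.69 for gLmna-2. Heterozygous cells had 1.96 and 1.89 under gMock, 1.72 and 2.24 under gLmna-1 and 2.27 and 2.63 under gLmna-2. Its highest library was 11.3-fold above its lowest, against 2.65-fold for H2-K1 and 2.56-fold for H2-D1. The level rested on 74 to 630 reads per library, where H2-D1 had 4252 to 10599. Class I genes are near-identical in their coding exons, and how reads shared among them were assigned is not given in the sources used here, so the split among heavy chains is uncertain.

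The B2m gene, which encodes the light chain shared by all class I molecules (NM_009735, chr2:122147687-122153082, plus strand), was the most abundant of the 10. It stood at 1526 and 1377 FPKM with gMock in wild-type Cas9 cells, then 578 and 564 for gLmna-1, then 1014 and 888 for gLmna-2. In homozygous Cas9 cells it was 552 and 947 with gMock, then 651 and 696 for gLmna-1, then 697 and 854 for gLmna-2. Heterozygous cells had 654 and 530 under gMock, 521 and 536 under gLmna-1 and 620 and 623 under gLmna-2. The gMock libraries of wild-type Cas9 cells stood apart from the other 16, and with gLmna-1 the same cells fell within the range of the heterozygous cells. Per length, the summed level of the 3 heavy chains was 23.6% to 31.5% of the B2m level over all libraries. The 24.99% and 23.6% of the wild-type Cas9 gMock libraries were at the low end of that range.

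The peptide transport and loading genes moved over a narrower range. Tap1, a subunit of the peptide transporter (NM_013683, chr17:34187556-34197225, plus strand), was at 18.4 and 17.3 FPKM with gMock in wild-type Cas9 cells, then 8.82 and 9.98 for gLmna-1, then 10.4 and 10.8 for gLmna-2, against 7.47 to 12.04 elsewhere. Tap2, its partner subunit (NM_011530, chr17:34204479-34216321, plus strand), was at 26.1 and 24.6, 16.1 and 16.8, and 19.7 and 20.5 in that order, against 11.99 to 16.4 elsewhere. Tapbp, which encodes tapasin (NM_009318, chr17:33919478-33929290, plus strand), was at 93.8 and 84.7, 49.2 and 56.5, and 64.8 and 71.9, against 45.1 to 70.5 elsewhere. Tap2 in wild-type Cas9 cells with gLmna-2 remained above all 12 libraries of the other genotypes, where Tap1 and Tapbp overlapped with them.

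The immunoproteasome genes had a low basal level. They encode the catalytic subunits that replace those of the constitutive proteasome in cells exposed to interferon. Psmb8 (NM_010724, chr17:34198195-34201454, plus strand) was at 23.6 and 22.3 FPKM with gMock in wild-type Cas9 cells, then 7.56 and 6.36 for gLmna-1, then 10.6 and 11.9 for gLmna-2. In homozygous Cas9 cells it was 4.44 and 5.43 with gMock, then 4.52 and 5.02 for gLmna-1, then 8.66 and 5.14 for gLmna-2. In heterozygous cells it was 4.54 and 6.38, 4.79 and 5.85, and 5.80 and 6.50. Psmb9 (NM_013585, chr17:34182099-34187330, minus strand) was at 5.31 and 5.13 with gMock in wild-type Cas9 cells, then 2.20 and 1.67 for gLmna-1, then 2.78 and 2.56 for gLmna-2, against 0.783 to 1.86 elsewhere, on 15 to 133 reads per library. Psmb10 (NM_013640, chr8:105935728-105938392, minus strand) was at 26.2 and 26.6, 13.7 and 13.4, and 19.2 and 16.3, against 8.08 to 11.6 elsewhere. For Psmb10 all 6 libraries of wild-type Cas9 cells lay above all 12 others.

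**Figure D1:**
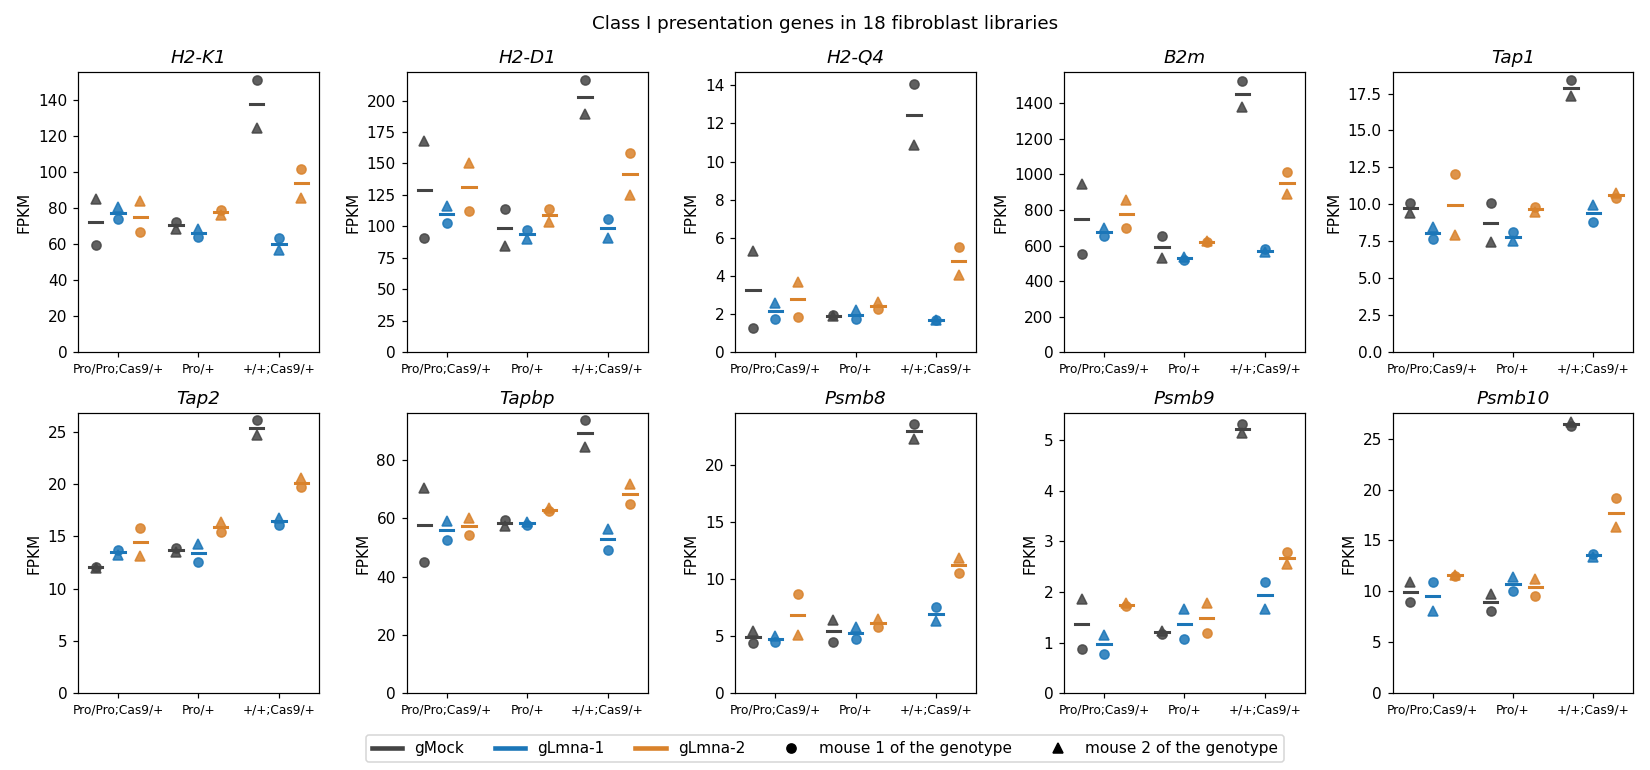
FPKM of the 10 class I genes in each of the 18 libraries, by genotype (horizontal axis) and guide (colour), with circles for mouse 1, triangles for mouse 2 and a bar at the mean of both. In all 10 panels both gMock libraries of +/+;Cas9/+ cells lie above the other 16, from 1377 FPKM upward for B2m and from 10.9 for H2-Q4.

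All 10 genes had the same leading order among the 9 groups. Wild-type Cas9 cells with gMock came first for 10 of 10 and the same cells with gLmna-2 second for 10 of 10. Below that the order was loose: the lowest group was gLmna-1 in wild-type Cas9 cells for H2-K1, H2-Q4 and Tapbp, gLmna-1 in heterozygous cells for H2-D1, B2m and Tap1, gLmna-1 in homozygous Cas9 cells for Psmb8 and Psmb9, and a gMock group for Tap2 and Psmb10. Neighbouring groups overlapped in 54 of the 80 pairs of neighbours in these orders, so most steps did not exceed the spread between 2 mice. The first place was never such a step. Both gMock libraries of wild-type Cas9 cells were above all others for 10 of the 10 genes, and 274 of the 12599 tested genes (2.17%) had that arrangement. Shares over all genes are not given for the second place or for the overlaps of neighbours, so those counts only describe the 10 genes.

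Wild-type Cas9 cells carry the nuclease and no Pro allele, and the comparison of gLmna-1 with gMock asks how expression differs when the guide is aimed at Lmna. All 10 class I genes were lower with gLmna-1 in both mice, as were 35.1% of all genes. On the scale of log2(FPKM + 1), which understates the change of low genes, the differences were −2.31 ± 0.22 for H2-Q4 (SE, n = 2 mice), −1.59 ± 0.19 for Psmb8, −1.34 ± 0.15 for B2m, −1.18 ± 0.09 for H2-K1, −1.09 ± 0.15 for Psmb9 and −1.03 ± 0.15 for H2-D1. Psmb10 differed by −0.92 ± 0.13, Tap1 by −0.86 ± 0.15, Tapbp by −0.74 ± 0.12 and Tap2 by −0.60 ± 0.09. The mean FPKM with gLmna-1 was 13.5% of the gMock mean for H2-Q4, 30.3% for Psmb8, 39.3% for B2m, 48.7% for H2-D1, 52.6% for Tap1 and 64.8% for Tap2. The mice were close for some genes and not for others: H2-D1 kept 49.1% in mouse 1 and 48.2% in mouse 2, and B2m 37.9% and 40.9%, while Tapbp kept 52.5% and 66.8% and Tap1 47.9% and 57.6%.

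By limma, with the mouse as a block and Benjamini-Hochberg adjustment over 12599 genes, 10 of 10 class I genes passed 0.05 as lower with gLmna-1, with adjusted p from 0.0036 for H2-K1 to 0.041 for Tap1. Of all genes, 0.667% passed as lower in this comparison. The median difference was −1.06 over the 10 genes and −0.03 over all genes tested. With 2 mice a group, the calls rested on single libraries: without mouse 1 gMock, mouse 1 gLmna-1 or mouse 2 gMock, 0 of 10 passed, and without mouse 2 gLmna-1, 3 passed. Fitted to wild-type Cas9 libraries alone, 5 passed. The direction was lower for all 10 under each of these settings.

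With gLmna-2 the same genes were lower than with gMock by a smaller amount. All 10 were lower in both mice, with differences from −1.22 ± 0.22 for H2-Q4 (SE, n = 2 mice) to −0.32 ± 0.09 for Tap2 and a median of −0.58, against −0.01 over all genes. Mean levels were 38.4% of gMock for H2-Q4, 48.9% for Psmb8, 65.5% for B2m, 68.1% for H2-K1 and 79.4% for Tap2. By limma, 1 of 10 passed as lower, H2-K1 at −0.55 ± 0.09 with an adjusted p of 0.044, where 0.54% of all genes passed as lower. That call was lost without any 1 of the 6 wild-type Cas9 libraries. The gLmna-2 level lay between the other guides: all 10 genes were higher with gLmna-2 than with gLmna-1 in both mice, by a median of 0.44, as were 36.7% of all genes. The libraries of these guides did not overlap for 10 of 10, with gLmna-2 above, and this held for 24.9% of all genes. The largest of these differences was 1.10 ± 0.22 for H2-Q4, and the smallest was 0.16 ± 0.15 for Tap1. By limma 0 of 10 passed, by voom 0, and 8 had an unadjusted p under 0.05. In that comparison 0% of all genes passed, and 8.01% had an unadjusted p under 0.05. The 3 comparisons in these cells share libraries pairwise, so they are not independent of each other.

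**Figure D2:**
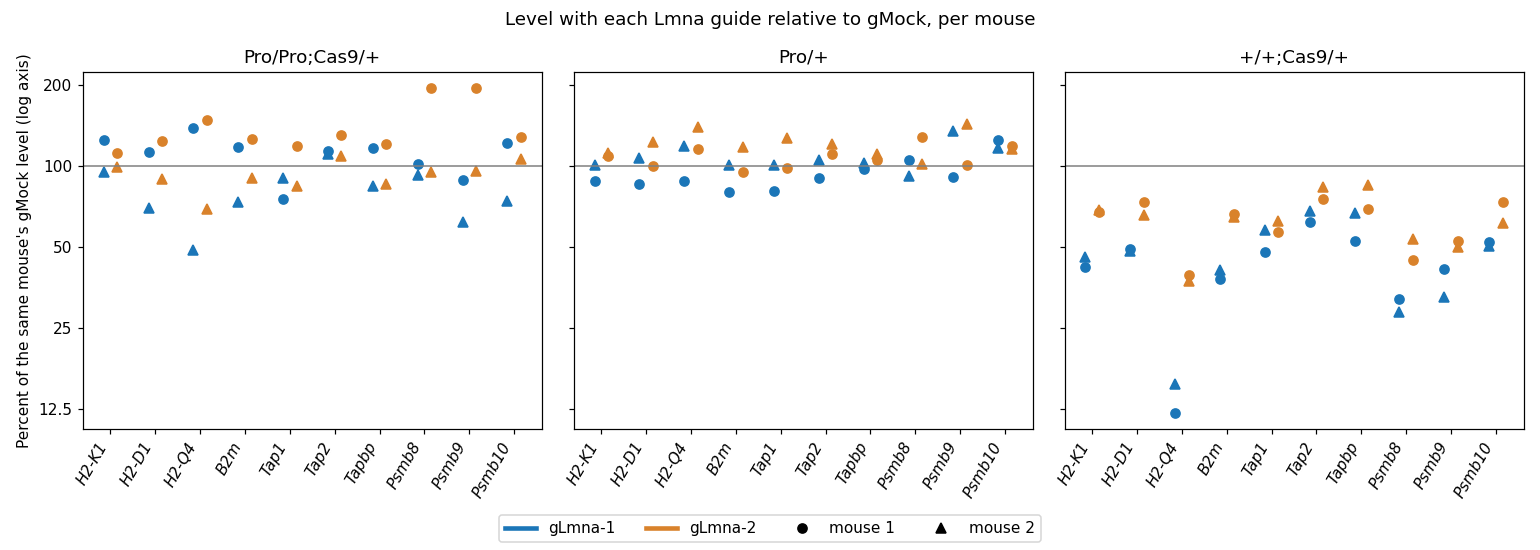
Level of each class I gene with gLmna-1 (blue) or gLmna-2 (orange) as a percentage of the gMock level in cells of the same mouse, on a log axis, with circles for mouse 1 and triangles for mouse 2 and a line at 100%. In +/+;Cas9/+ cells all points lie below 100%, with medians over the 10 genes of 44.9% and 46.9% for gLmna-1 and 67.0% and 63.4% for gLmna-2, while points of the other genotypes lie on both sides.

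In homozygous Cas9 cells no class I gene passed in any guide comparison. By limma 0 of 10 passed for gLmna-1 against gMock, where 0.976% of all genes did, 0 for gLmna-2 against gMock (0.357% of all genes) and 0 for gLmna-2 against gLmna-1 (9.95%). At an unadjusted p under 0.05 the numbers were 0, 1 and 1, against 17.98%, 10.1% and 25.2% of all genes, and voom gave 0 in each. Median differences over the 10 genes were −0.08, 0.08 and 0.24 in that order. The 2 mice went different ways: relative to their own gMock library, the genes stood at a median of 115% with gLmna-1 in mouse 1 and 79.0% in mouse 2. This came with unequal gMock libraries. With gMock, mouse 2 was above mouse 1 by 4.25-fold for H2-Q4, 2.11-fold for Psmb9, 1.85-fold for H2-D1, 1.72-fold for B2m and 1.56-fold for Tapbp, while Tap1 (0.933-fold) and Tap2 (0.992-fold) were level. H2-K1 was 1.43-fold higher in mouse 2 and Psmb8 and Psmb10 1.22-fold, so 8 of 10 genes were higher in mouse 2 and the TAP transporter genes were the other 2.

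In heterozygous cells, which have no Cas9, 0 of 10 passed by limma and by voom in all 3 guide comparisons, where 0% of all genes passed in each. At an unadjusted p under 0.05 the numbers were 0 for gLmna-1 against gMock, 1 for gLmna-2 against gMock and 2 for gLmna-2 against gLmna-1, where 1.37%, 4.49% and 2.11% of all genes had one. The largest difference from gMock was 0.25, and the median differences were −0.03, 0.15 and 0.21. All 10 genes were slightly higher with gLmna-2 than with gMock on average, and 8 were so in both mice, as were 20.4% of all genes. With gLmna-2, 9 of 10 were higher than with gLmna-1 in both mice, as were 22.3% of all genes, and for 7 of 10 the libraries did not overlap, against 9.38% of all genes. The guide order gLmna-2 above gLmna-1 was thus also seen in cells without Cas9.

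The differences between genotypes in the response to a guide were tested directly. Each such test reuses libraries of the guide comparisons above and is not independent of them. Every difference from wild-type Cas9 cells against gMock, here and in the next paragraph, rests on the same wild-type Cas9 gMock libraries. For gLmna-1 against gMock, the homozygous minus wild-type Cas9 difference was positive for 10 of 10 genes, with a median of 0.85 and an unadjusted p under 0.05 for each, which 5.75% of all genes had. By limma, H2-K1 passed at 1.30 ± 0.13 (SE) with an adjusted p of 0.0205, 1 of 10, where 0.0317% of all genes passed as higher. H2-Q4 was at 2.04 ± 0.31 with an adjusted p of 0.10 and Psmb8 at 1.56 ± 0.27 with 0.16. The H2-K1 call was lost without any 1 of the 6 wild-type Cas9 libraries or without homozygous mouse 1 gMock. Without homozygous mouse 2 gMock 3 genes passed, and without either homozygous gLmna-2 library 2 passed. For gLmna-2 against gMock the differences between these genotypes were again positive for 10 of 10, with a median of 0.70, all 10 at an unadjusted p under 0.05 (3.51% of all genes), and 0 of 10 passed by limma or voom (0% of all genes). For gLmna-2 against gLmna-1, 0 of 10 passed by either tool, where 0.0476% of all genes passed by limma, and 3 of 10 had an unadjusted p under 0.05, as did 9.92% of all genes.

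Between homozygous and heterozygous cells, 0 of 10 guide responses differed by limma or voom, and 0 had an unadjusted p under 0.05, in each of the 3 guide comparisons. Of all genes, 0%, 0% and 2.38% passed for gLmna-1 against gMock, gLmna-2 against gMock and gLmna-2 against gLmna-1. The heterozygous minus wild-type Cas9 differences, added after the data had been seen, were positive for 10 of 10 genes against gMock, with medians of 1.13 for gLmna-1 and 0.72 for gLmna-2 and all at an unadjusted p under 0.05, against 4.12% and 5.14% of all genes. By limma 0 of 10 passed and by voom 0, with 0% of all genes in both. For gLmna-2 against gLmna-1, 0 of 10 passed by either tool, 3 had an unadjusted p under 0.05 (6.15% of all genes), and 0% of all genes passed. Heterozygous cells differ from wild-type Cas9 cells in both Cas9 and the Pro allele, which cannot be told apart here.

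The gMock libraries compare the genotypes with a guide that has no genomic match. Homozygous Cas9 cells were lower than wild-type Cas9 cells for 10 of 10 class I genes, with a median difference of −1.01 against 0.00 over all genes. By limma on the 6 gMock libraries, 3 of 10 passed as lower: Psmb8 at −2.02 ± 0.18 (SE, n = 2 mice, adjusted p = 0.034), Tap2 at −1.02 ± 0.10 (0.038) and Psmb10 at −1.33 ± 0.14 (0.042). Of all genes, 0.389% passed as lower. Mean Psmb8 in homozygous Cas9 cells was 21.5% of that in wild-type Cas9 cells, while mean B2m was 51.6% and H2-D1 63.8%. Heterozygous cells were also lower than wild-type Cas9 cells for 10 of 10, with a median of −1.17, and the same 3 genes passed, Psmb8 at −1.90 ± 0.18, Psmb10 at −1.47 ± 0.14 and Tap2 at −0.84 ± 0.10, where 0.381% of all genes passed as lower. The 2 comparisons share the wild-type gMock libraries. The counts of 3 fell to 0 without any 1 of the 4 libraries in each comparison, and voom gave 0 for homozygous and 2 for heterozygous cells. Between homozygous and heterozygous cells 0 of 10 passed by limma or voom, 0 had an unadjusted p under 0.05 and 0% of all genes passed, and the median difference was 0.11.

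The immunoproteasome changed against a steadier constitutive proteasome. Psmb8, Psmb9 and Psmb10 replace Psmb5, Psmb6 and Psmb7, the constitutive catalytic subunits. Per length, the Psmb8 level was 43.7% and 42.8% of the Psmb5 level in the wild-type Cas9 gMock libraries and 8.48% to 24.3% in the other 16. Psmb10 was 23.2% and 23.8% of Psmb7, against 7.38% to 19.4%. Psmb9 was 4.75% and 4.73% of Psmb6, against 0.635% to 3.25%. The order of guides in wild-type Cas9 cells held for each ratio in each mouse, with gLmna-1 below gLmna-2. Psmb5, Psmb6 and Psmb7 themselves differed by −0.27, −0.22 and −0.23 between gLmna-1 and gMock in these cells and 0 of 3 passed by limma. Of 16 other 20S subunits and assembly factors 0 passed, 16 of 16 were negative and 8 had an unadjusted p under 0.05, against 8.61% of all genes, with a median of −0.29. Of 5 proteasome activators 0 passed, with a median of −0.16.

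**Figure D3:**
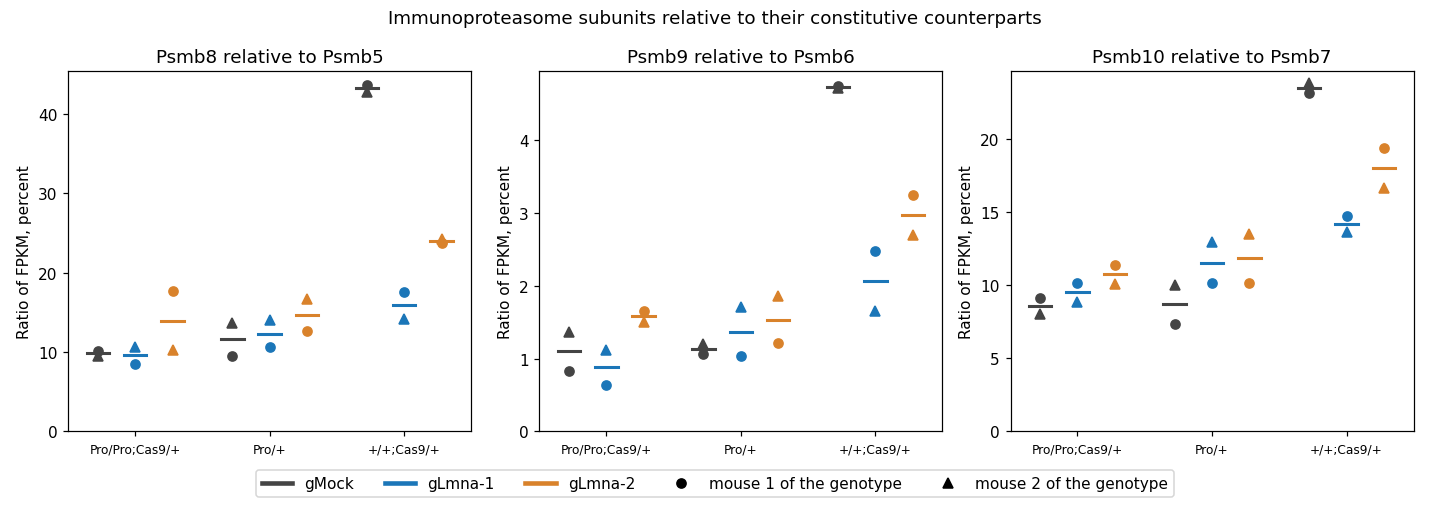
Level of each immunoproteasome subunit as a percentage of the constitutive subunit it replaces, per library, by genotype (horizontal axis) and guide (colour), with circles for mouse 1, triangles for mouse 2 and a bar at the mean. The gMock libraries of +/+;Cas9/+ cells lie at 42.8% and 43.7% for Psmb8 against Psmb5, above the 8.48% to 24.3% of the other 16 libraries.

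Other genes of the pathway were divided. Of 26 further class I heavy chain genes 24 were in the table and 8 were tested. With gLmna-1 in wild-type Cas9 cells 2 of these 8 fell and 0 rose, H2-T22 with a difference of −0.71 and H2-T23, which encodes the Qa-1 molecule, with −0.83, with a list median of −0.13. Of 11 trimming and loading genes 1 fell, Erap1 (−0.55), which encodes the aminopeptidase that trims peptides in the endoplasmic reticulum, with a list median of −0.04. By limma 0.667% of all genes passed as lower with gLmna-1 there. With gLmna-2 in the same cells 0 of 8 and 0 of 11 passed, where 0.54% of all genes passed as lower. An unadjusted p under 0.05 was found for 3 and 1, against 7.56% of all genes. With gMock, H2-T22 and H2-T23 were also lower in homozygous than in wild-type Cas9 cells, with differences of −1.14 and −1.13. Of the 11 loading genes 0 passed, and of all genes 0.389% passed as lower. These genes are named because they were the members of their lists that passed. With gLmna-1 both heavy chain calls were lost without mouse 1 gMock, mouse 2 gMock or mouse 1 gLmna-1, H2-T22 without any 1 of the 6 wild-type Cas9 libraries, and Erap1 likewise. Under gMock both were lost without any 1 of the 4 libraries and by voom.

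Different genes of these lists moved in homozygous Cas9 cells. The genes with the smallest p there between gLmna-2 and gLmna-1 were Fcgrt (−0.57 ± 0.09), Cd1d1 (−0.57 ± 0.14) and Hfe (−0.50 ± 0.13) among the class I heavy chains, 3 class I-like genes whose products carry antibody, lipid antigen and an iron-sensing function. All 3 passed by limma as lower with gLmna-2 than with gLmna-1. Among trimming and loading genes Calr (−0.65 ± 0.13), Pdia3 (−0.37 ± 0.08) and Ganab (−0.35 ± 0.07) passed as lower, all of them general folding factors of the endoplasmic reticulum. In the same comparison the 10 class I genes had 0 calls, as given above, and 9.95% of all genes passed in either direction. These 6 calls were all lost without homozygous mouse 1 gLmna-2, without homozygous mouse 2 gLmna-2, with no mouse block and in homozygous libraries alone, and without mouse 2 gLmna-1, or with no filter on low values, Fcgrt and Ganab passed and the other 4 did not. Hfe was also lost without mouse 1 gMock, mouse 2 gMock or mouse 1 gLmna-1. The number of all genes that passed there, 1253, was 140 and 238 without the gLmna-2 library of mouse 1 and mouse 2, 2629 without mouse 1 gLmna-1, 59 with no mouse block and 0 in homozygous libraries alone. Among class II genes, which present peptides from outside the cell, H2-Ab1 was lower (−0.85 ± 0.15) and H2-DMa higher (0.51 ± 0.12), and both calls were lost without either gLmna-2 library, while H2-DMa was also lost without either gLmna-1 library. Against gMock in homozygous Cas9 cells, Fcgrt passed by limma as higher with gLmna-1 (0.63 ± 0.09) and H2-DMa as higher with gLmna-2 (0.74 ± 0.12). Of all genes, 0.976% and 0.357% passed in either direction in those comparisons. How these calls held under the alternatives is not described here. In wild-type Cas9 cells 0 of the 3 tested class II genes passed with gLmna-1, at a median of 0.28.

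Some genes that regulate class I transcription were lower in wild-type Cas9 cells. With gLmna-1, Irf7, an interferon regulatory factor gene, passed by limma as lower at −2.25, and Nlrc5 at −0.81. With gLmna-2, Irf7 passed at −2.36, Stat2 at −1.38 and Nlrc5 at −0.74. These genes are named because they passed, and no count over the regulators is given. The Irf7, Nlrc5 and Stat2 calls were lost without either gMock library of these cells, and those for gLmna-2 also without either gLmna-2 library. Nlrc5, the class I transactivator, was at 2.85 and 2.66 FPKM with gMock, then 1.18 and 1.11 for gLmna-1, then 1.09 and 1.43 for gLmna-2 in these cells. In the homozygous Cas9 cells Nlrc5 was at 0.926 and 1.60 with gMock, then 0.429 and 1.02 for gLmna-1, then 1.27 and 1.59 for gLmna-2, and it passed as higher with gLmna-2 than with gLmna-1, at 0.51 ± 0.13, a call lost without any 1 of the 6 homozygous libraries. Of 10 tested genes for interferon receptors and signalling, Usp18, a feedback inhibitor of type I interferon signalling, was the 1 that passed by limma in wild-type Cas9 cells, as lower, with −3.02 for gLmna-1 and −2.97 for gLmna-2. Of all genes, 0.667% and 0.54% passed as lower in those comparisons. Of the 10 signalling genes, 7 had a negative difference with gLmna-1 and 3 with gLmna-2. The Usp18 calls were also lost without either gMock library. Usp18 is in the list of interferon-stimulated reference genes as well, so its calls are counted again below. Jak2, which encodes a receptor-associated kinase, passed as higher with gLmna-2 than with gLmna-1 in homozygous Cas9 cells, at 0.37 ± 0.10, and not by voom.

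Interferon-stimulated genes outside the class I pathway also fell in wild-type Cas9 cells. Of 15 tested reference genes all 15 were lower with either guide, with medians of −2.31 and −2.03. By limma 13 passed as lower with gLmna-1 and 14 with gLmna-2, where 0.667% and 0.54% of all genes did. Without mouse 2 gMock 0 of these passed for either guide, and without mouse 1 gMock 0 and 4 did. Without mouse 1 gLmna-1 0 of the 13 passed for gLmna-1, and without mouse 1 or mouse 2 gLmna-2 2 and 0 of the 14 passed for gLmna-2. With gMock, all 15 were also lower in homozygous and in heterozygous cells than in wild-type Cas9 cells, with medians of −2.11 and −2.63. By limma 2 and 9 passed as lower, where 0.389% and 0.381% of all genes did. These comparisons share the wild-type Cas9 gMock libraries with the guide comparisons. The reference list was chosen with earlier results of these data in view and is no independent evidence of its direction. Isg15, a ubiquitin-like antiviral protein gene, stood at 189 and 201 FPKM with gMock, then 12.9 and 26.3 for gLmna-1, then 25.5 and 12.4 for gLmna-2. In mouse 1 of wild-type Cas9 cells 15 of the 15 were higher with gLmna-2 than with gLmna-1. In mouse 2 it was 2 of 15. The 10 class I genes were higher with gLmna-2 in both mice, 10 of 10 each. With gLmna-1 the reference genes kept a median of 9.27% and 21.7% of their gMock level in mouse 1 and mouse 2, and with gLmna-2 17.4% and 11.8%. The class I genes kept 44.9% and 46.9%, and 67.0% and 63.4%. No test was made of the class I genes against the reference genes.

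In homozygous Cas9 cells the same reference genes kept a median of 46.5% and 26.4% of their gMock level with gLmna-1, in mouse 1 and mouse 2, where the class I genes stood at 115% and 79.0%. By limma 0 of the 15 reference genes passed in that comparison, where 0.976% of all genes did. All 15 had a negative difference, with a median of −0.84. An unadjusted p under 0.05 was found for 11 of the 15 and for 17.98% of all genes. Isg15 there went from 19.2 and 38.8 FPKM with gMock to 8.92 and 6.37 with gLmna-1. H2-K1 in the same libraries went from 59.5 and 85.1 to 74.2 and 80.5. In heterozygous cells the reference genes stood at 89.0% and 111% with gLmna-1, and the class I genes at 89.2% and 104%.

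**Figure D4:**
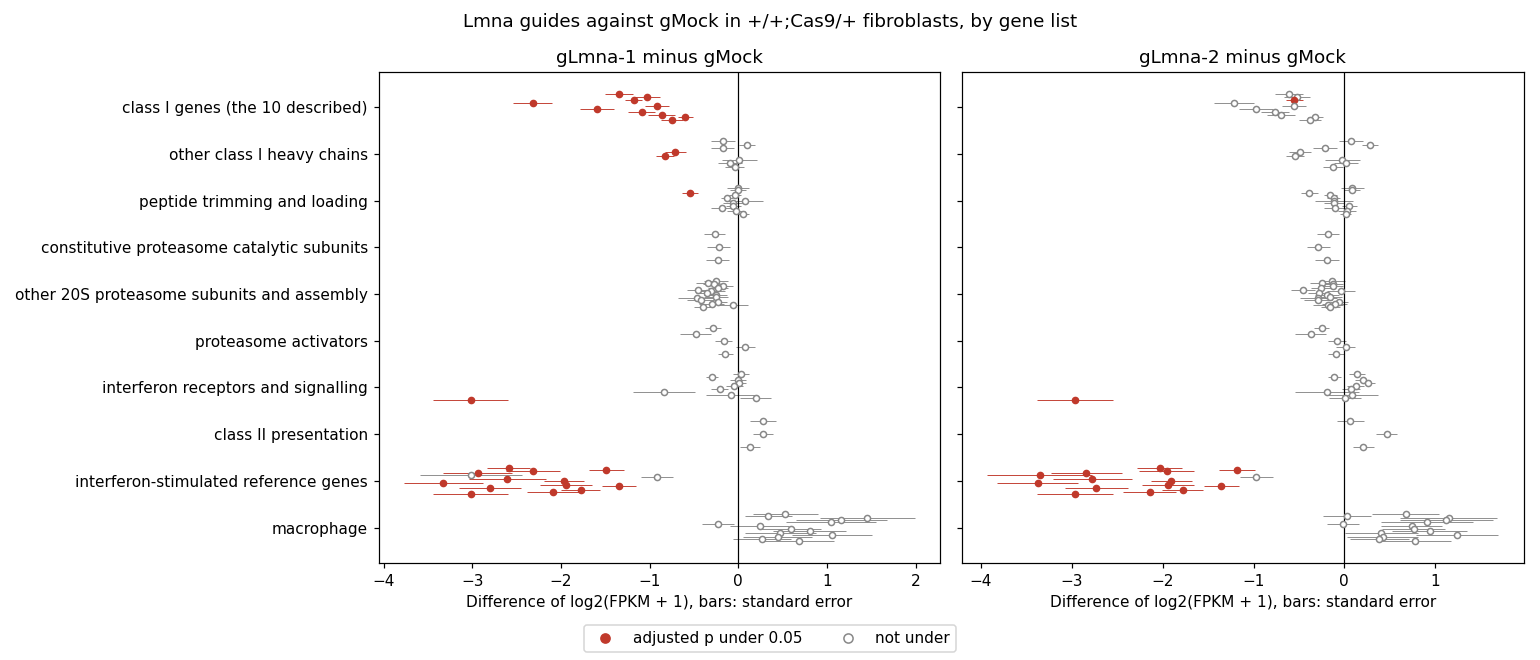
Difference of log2(FPKM + 1) between each Lmna guide and gMock in +/+;Cas9/+ fibroblasts for the 10 class I genes and the genes of 9 other lists (rows), with bars for the standard error and filled red points where the limma adjusted p is under 0.05. The 10 class I genes are all filled with gLmna-1 and 1 of 10 with gLmna-2, while the constitutive proteasome, other 20S, activator, class II and macrophage rows hold 0 filled points in either panel.

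Macrophage markers varied across the same libraries and ran the other way in wild-type Cas9 cells. The 14 markers summed to 283 and 80.2 FPKM with gMock, then 478 and 190 for gLmna-1, then 449 and 248 for gLmna-2, in mouse 1 and mouse 2. Within each of these mice the sum was lowest with gMock, where the class I genes were highest. Across mice it was not so ordered, since the 190 and 248 of mouse 2 lay below the 283 of mouse 1. With gMock, homozygous Cas9 cells had sums of 696 to 835 and heterozygous cells of 84.7 to 393. Between wild-type Cas9 cells with gLmna-1 and gMock, 0 of 14 markers passed by limma, where 0.667% of all genes passed as lower. There 3 markers had an unadjusted p under 0.05, against 8.61% of all genes, and 1 of 14 differences was negative. Under gMock, 0 of 14 passed between homozygous and wild-type Cas9 cells. Of these 14, 13 had an unadjusted p under 0.05, against 10.4% of all genes, and 0 differences were negative. Between heterozygous and wild-type Cas9 cells 0 passed, 0 had an unadjusted p under 0.05 and 2 differences were negative. Fibroblast marker sums in wild-type Cas9 cells were 8648 to 9254 with gMock, 10146 to 11037 with gLmna-1 and 8707 to 9973 with gLmna-2. The part of these differences in the class I levels was not tested.

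The class I genes varied together across libraries. After centring within each mouse, the 45 pairs of the 10 genes had Pearson correlations of 0.71 (Tap1 with Psmb10) to 0.99 (H2-D1 with B2m) over 18 libraries, with a median of 0.89. These points share the wild-type Cas9 gMock libraries, and without the 6 wild-type Cas9 libraries the range was −0.04 to 0.97 with a median of 0.57 over 12. The tested genes whose centred profile was most like the mean of the 10 were H2-T23 (r = 0.95), Igf2 (0.95), Tor3a (0.94), Lgals3bp (0.94) and Shisa5 (0.94), over 18 libraries. H2-T23 was at 39.4 and 32.5 FPKM with gMock in wild-type Cas9 cells, then 20.3 and 19.1 for gLmna-1, then 27.6 and 21.3 for gLmna-2, the same order of guides in both mice as the 10 genes. Igf2 averaged 3.06, 0.628 and 1.41 FPKM in those groups.

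The level with gLmna-1 was also read exon part by exon part. Among the exon parts in the file with at least 20 reads in all 4 libraries, 8 of 8 parts of H2-K1, 7 of 7 of H2-D1, 3 of 3 of H2-Q4, 5 of 5 of B2m, 13 of 13 of Tap1, 12 of 12 of Tap2, 6 of 6 of Psmb8 and 9 of 9 of Psmb10 were lower with gLmna-1 than with gMock in both wild-type Cas9 mice. Tapbp had 7 of 8 such parts. The part that was not, the first of Tapbp, had log2 ratios of 0.04 and −0.29 in mouse 1 and mouse 2. Parts of a gene come from the same 4 libraries and are not independent, so these counts restate the gene differences above. Of all genes, 35.1% were lower in both mice, and no share over all parts is given. Psmb9 had no part with enough reads, and only 3 of the 8 parts of H2-Q4 and 7 of the 10 of H2-D1 had enough, so their remaining parts, the first of each among them, are not described. The log2 ratio of FPKM by part and mouse was −1.22 to −0.87 in H2-D1, −1.52 to −0.82 in H2-K1 and −3.04 to −2.43 in H2-Q4. The ranges of H2-Q4 and the classical heavy chains did not overlap.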

How the data were processed

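RNA sequencing libraries of 18 fibroblast cultures were analysed from a deposited table of FPKM values per transcript part. The submitters' processing notes name FastQC 0.11.2 for read quality, STAR 2.4.0k for alignment, HOMER for counting and the mm10 build. Per the file headers, the authors made the FPKM values with HOMER for exon parts of RefSeq transcripts, without condensing parts. Strand use is not given in the sources used here. The table's other 6 library columns matched no sample used here and were not used.

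FPKM of the parts was combined by length into transcript FPKM, and the transcript with the highest mean was kept per symbol (24445 symbols). FPKM steps gave whole reads for 100% of tested values within a tolerance of 0.05, with 22424388 to 42622087 reads per library, and replicates were not duplicates (correlations of 0.965 to 0.988). The 12599 genes that reached 1 FPKM in 2 or more libraries entered limma 3.58.1 (trend) on log2(FPKM + 1) in R 4.3.3, with Benjamini-Hochberg adjustment over all tested genes and a threshold of 0.05. Guide comparisons used all 18 libraries with the mouse as a block. Genotype comparisons used the 6 gMock libraries. The labels name the mouse, which pairs the 3 libraries of an animal. Deviations of same-mouse libraries from their group means correlated at −0.02 to 0.78 in homozygous, 0.18 to 0.59 in wild-type and 0.47 to 0.73 in heterozygous cells. The fit was checked on simulated data.

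Alternatives were a pseudocount of 0.1, no filter, no block, only the genotypes compared, upper-quartile scaling, the longest transcript, limma voom on recovered reads with trimmed mean of M-values factors, and leaving out each library. The 3 heterozygous against wild-type differences of guide effects were added after the data had been seen. The 10 genes and all lists were chosen with earlier results of these data known. All 10 genes were named, with the 3 genes of each pathway list that had the smallest p between gLmna-2 and gLmna-1 in homozygous cells described where they passed, and the 5 genes whose mouse-centred profile correlated best with the mean of the 10. Other named genes were chosen after their values were seen. Counts over the class I regulators are not reported here. Promoters and names are from RefSeq (GRCm38.p6).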

Additional observations from a re-analysis of the deposited data

Results flagged for a closer look

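H2-K1 responded differently to gLmna-1 in the 2 genotypes that carry Cas9: its gLmna-1 minus gMock difference of log2(FPKM + 1) was 1.30 higher in Pro/Pro;Cas9/+ than in +/+;Cas9/+ cells (limma adjusted p = 0.0205). It was −1.24 and −1.12 in the 2 +/+;Cas9/+ mice and 0.32 and −0.08 in the 2 Pro/Pro;Cas9/+ mice. The sizes over the alternatives ran from 1.15 to 1.45. The call was lost with no filter, with no replicate block, with only those genotypes and without some single libraries, as given above. Groups of 2 are too small to tell which of 2 libraries is outlying.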

How the results depend on the processing

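The direction of every class I difference that passed was kept under every alternative run (0 reversed). Of 120 such values under settings that leave out no library, 87 passed and 33 did not, and of 102 that leave out 1 library, 78 did not pass. Counts of class I genes that passed moved as follows. For gLmna-1 against gMock in +/+;Cas9/+ cells (10), it was 5 with only that genotype's libraries and 0 to 8 with a library left out. For gLmna-2 against gMock there (1), it was 0 with a pseudocount of 0.1, with no filter, with no replicate block and with only that genotype, 2 with upper-quartile scaling, 3 with voom and 0 to 0 with a library left out. For Pro/Pro;Cas9/+ against +/+;Cas9/+ under gMock (3), it was 0 with no filter, with only those genotypes and with voom, and 0 to 0 with a library left out. For Pro/+; +/+ against +/+;Cas9/+ under gMock (3), it was 0 with no filter, 6 with only those genotypes and 0 to 0 with a library left out. For the gLmna-1 effect in Pro/Pro;Cas9/+ against +/+;Cas9/+ cells (1), it was 0 with no filter, with no replicate block and with only those genotypes, and 0 to 3 with a library left out. For the gLmna-1 effect in Pro/+; +/+ against +/+;Cas9/+ cells (0), it was 6 with only those genotypes. The counts of 0 for gLmna-2 against gLmna-1 in Pro/Pro;Cas9/+ cells, for the other gLmna-2 effects of Pro/Pro;Cas9/+ against +/+;Cas9/+ cells, and for the gLmna-1 against gMock and gLmna-2 against gLmna-1 effects of Pro/Pro;Cas9/+ against Pro/+; +/+ cells were 0 to 1 with a library left out. With no replicate block, 8 of the 10 genes passed for gLmna-1 in +/+;Cas9/+ cells.

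Counts over all genes moved by more than 1.5 times in most comparisons. In Pro/Pro;Cas9/+ cells they moved from 123 to 6 with no filter and 0 with no replicate block or only that genotype for gLmna-1 (0 to 1773 with a library left out), from 45 to 19 and 0 likewise for gLmna-2 (0 to 181), and from 1253 to 59 with no replicate block and 0 with only that genotype for gLmna-2 against gLmna-1 (140 to 2629). For that last comparison, the difference between Pro/Pro;Cas9/+ and Pro/+; +/+ cells moved from 300 to 50 with no filter, 1 with no replicate block and 2 with only those genotypes (0 to 2056), and that between Pro/Pro;Cas9/+ and +/+;Cas9/+ cells from 6 to 0 under each of these and to 12 with upper-quartile scaling and 10 with voom (0 to 548). They moved from 87 to 21 with only that genotype for gLmna-1 in +/+;Cas9/+ cells, and from 71 to 33 with a pseudocount of 0.1, 27 with no filter, 43 with no replicate block and 0 with only that genotype for gLmna-2. Under gMock they moved from 50 to 2 with no filter, 0 with only those genotypes, 31 with upper-quartile scaling and 15 with voom for Pro/Pro;Cas9/+, and from 52 to 15 with no filter and 176 with only those genotypes for Pro/+; +/+, each against +/+;Cas9/+. For Pro/Pro;Cas9/+ against Pro/+; +/+ under gMock, 0 became 7 with no filter. The causes were not tested. Fewer libraries leave fewer degrees of freedom, and Psmb9 rested on as few as 15 reads.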
